A study of Mus musculus with 12 samples.

Results

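The genes described here are the PGC-1 family of transcriptional coactivators, transcription factors that work with it, and enzymes of mitochondrial fatty acid oxidation, measured in mouse hepatic progenitor cells given IL-13, IL-4 or vehicle. They are 10 of the 19057 genes that the array's annotation names: Ppargc1a, Ppargc1b, Pprc1, Esrra, Nrf1, Tfam, Ppara, Cpt1a, Acadm and Acadvl. All probes that the annotation of the Illumina mouse beadchip assigns to them were taken, which gave 16 of 45281 probes. Of the 10 genes 8 had a probe detected often enough to be tested, among 10453 genes tested in all.

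Hepatic progenitor cells are epithelial cells of the liver that can give rise to hepatocytes and bile duct cells. The cells were sorted on surface antigens as DAPI-CD45-CD31-TER119-EpCAM+CD24+CD133+, that is, live, lacking the leukocyte, endothelial and red cell antigens, and positive for 3 epithelial and progenitor antigens. All cells were then grown in the same medium, which held serum, dexamethasone, ITS, nicotinamide, IL-6, HGF and EGF, and all went without serum for 24 hours before treatment. The IL-13 group (4 arrays) then received 50 ng/mL recombinant IL-13, the IL-4 group (4 arrays) 50 ng/mL recombinant IL-4, and the control group (4 arrays) 0.1% BSA (bovine serum albumin) as vehicle. The strain, age and number of the mice, and the length of the cytokine treatment, are not stated in the sources. Nothing in the labels says that the 4 arrays of a group came from separate cultures or animals, so the p-values reflect only how these samples vary, and that variation may be technical. Each of 2 chips carried 2 arrays of every group, and a group occupied the same positions on both chips, so position and group cannot be told apart.

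The PGC-1 proteins do not bind DNA themselves. They attach to transcription factors such as the estrogen-related receptors, the PPARs and nuclear respiratory factor 1, and raise the transcription of genes for mitochondria and fat burning. In liver, PGC-1alpha (Ppargc1a) is known for its part in the fasting response and PGC-1beta (Ppargc1b) for lipid metabolism. In mouse macrophages, Ppargc1b is known as a gene that IL-4 induces through the transcription factor STAT6, which IL-13 also activates.

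Ppargc1b was 2.62-fold higher with IL-13 than in control cells and 2.42-fold higher with IL-4, on background-corrected signals, and no array of either cytokine overlapped the controls. Of the other 7 tested genes, Acadm rose 1.28-fold with IL-13 and Acadvl 1.22-fold with IL-4. Acadm was also 1.22-fold higher with IL-4 and Acadvl 1.18-fold higher with IL-13, without passing, and neither gene passed between the cytokines. Pprc1, Esrra, Nrf1, Tfam and Cpt1a passed the test with neither cytokine. Ppargc1a and Ppara were not detected on any of the 12 arrays. Thus 2 of 8 tested genes rose with each cytokine and 0 fell, while over all genes tested 5.73% passed with IL-13 (3.5% higher and 2.23% lower) and 3.47% with IL-4 (2.15% higher and 1.32% lower). With IL-4 the count rests in part on Acadvl at an adjusted p of 0.0498, and it was 1 of 8 in 17 of 27 alternatives. Under the submitters' processed values the split of all genes turned to 203 higher and 406 lower with IL-13, and 120 higher and 294 lower with IL-4. A gene was counted as passing at a Benjamini-Hochberg adjusted p under 0.05 over all genes in a limma model of the 12 arrays. Both cytokine groups were compared with the same 4 control arrays, so the 2 comparisons are not independent of each other.

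The median deposited intensity lay between 99.1 and 107, between 40.8 and 43.9% of probes were detected (detection p under 0.05), and correlations across genes within a group were 0.993 to 0.997. Estimated from the spread around the group means, the array weight was 0.413 for control 4, against 0.74 to 1.46 for the others, and the fit with these weights kept the calls of the 8 genes and added Acadm with IL-4. The number of arrays limits the precision. Of the 10 progenitor and bile duct markers 8 had a probe and 7 could be tested, with summed levels of 23480 to 24650 with IL-13, 22620 to 24920 with IL-4 and 19890 to 21270 in controls. Most of that sum was the keratins Krt8 and Krt18, and its members did not move one way. Krt18 rose (0.46 with IL-13 and 0.39 with IL-4), Krt7 fell (-0.44 and -0.36), and Krt8, Krt19, Sox9, Cd24a (CD24) and Prom1 (CD133) passed with neither cytokine. Prom1 was dim, with log2 means of 4.68 with IL-13, 4.51 with IL-4 and 4.48 in controls. A Ppargc1a probe detected on 0 arrays spanned 4.20 to 4.48, so a change in Prom1 could hardly be measured. Epcam, one of the sort antigens, was detected on 0 of 12 arrays, as was the hepatocyte marker Alb. Signal of hemoglobin genes was highest on arrays IL-4 4, IL-4 2 and control 4, and leaving these arrays out is described with the results it touches.

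Ppargc1b encodes PGC-1beta and has 1 probe on the array, detected on all 12. Its normalised log2 signal on arrays 1 to 4 was 6.58, 6.65, 6.50 and 6.52 with IL-13, 6.56, 6.56, 6.18 and 6.49 with IL-4, and 5.36, 5.04, 5.18 and 5.12 in controls. The lowest cytokine array, IL-4 3, lay well above the highest control array, and the IL-13 and IL-4 arrays overlapped. The means were 6.56 ± 0.07 with IL-13, 6.45 ± 0.18 with IL-4 and 5.17 ± 0.14 in controls (SD, n = 4 each). The difference from control was 1.39 ± 0.09 (SE) with IL-13, with an adjusted p of 1.9e-08 in limma, and it ranked 16 by p among all genes. With IL-4 it was 1.28 ± 0.09, with an adjusted p of 7.24e-08, and its rank was again 16. In a bulk sample, more RNA per cell and a larger share of cells with the transcript cannot be told apart.

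**Figure D1:**
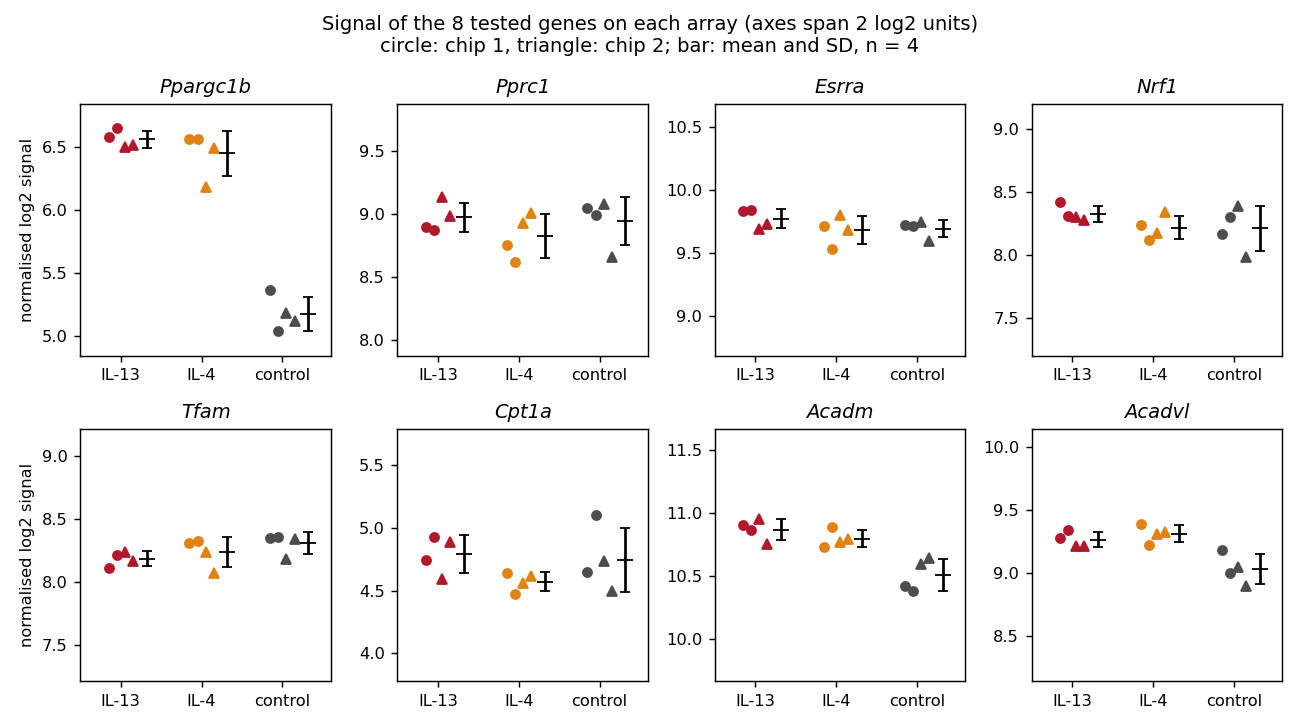
Normalised log2 signal of the 8 tested genes on each array, with IL-13, IL-4 and control arrays from left to right in each panel; circles are arrays of chip 1 and triangles of chip 2, the bars give the mean and SD of 4 arrays, and every vertical axis spans 2 log2 units. The cytokine arrays of Ppargc1b lie between 6.18 and 6.65 and its control arrays between 5.04 and 5.36, and the cytokine and control arrays also stand apart, by less, for Acadm and Acadvl.

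The Ppargc1b probe was dim, and the size of its difference depended on how the background was treated. The deposited intensities were 186, 188, 171 and 167 with IL-13, 179, 179, 145 and 166 with IL-4, and 129, 122, 116 and 112 in controls. Undetected probes of the same arrays sit near 100 units, as the Ppargc1a and Ppara probes show, so much of the control reading lies at the level of undetected probes. Without background correction the difference was 0.57 with IL-13 and 0.52 with IL-4 on the log2 scale, and with a larger offset (50 in place of 16) it was 0.87 and 0.79. The submitters' processed values, which are not background-corrected, gave 0.57 and 0.49. The direction and the call held under all 27 alternatives, with adjusted p-values of at most 0.00013 with IL-13 and 0.000499 with IL-4. Within chip 1 the difference was 1.42 with IL-13 and 1.36 with IL-4, and within chip 2 it was 1.36 and 1.19.

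**Figure D2:**
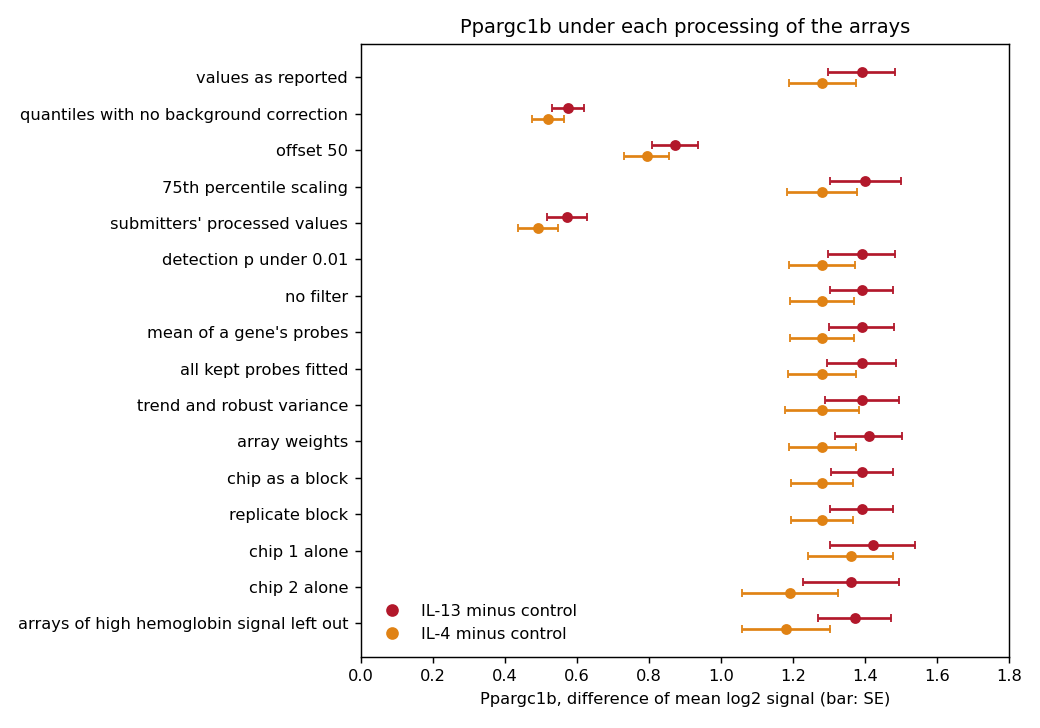
Difference of Ppargc1b from control (log2 scale, horizontal axis; bars are SE) for IL-13 and IL-4 as reported and under 15 other ways of processing the arrays. All differences lie above 0, and those without background correction or with a larger offset lie between 0.49 and 0.87, below the 1.39 and 1.28 reported.

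The 2 cytokines were given at the same concentration, and Ppargc1b did not pass the test between them. IL-13 minus IL-4 was 0.11 on the log2 scale, with a 95% interval of -0.08 to 0.31 and an adjusted p of 0.756. The interval leaves room for a difference in either direction smaller than either cytokine's difference from control. The order of the group means was IL-13, IL-4 and control, and the first pair did not differ beyond its spread.

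Since Ppargc1b is known from macrophages, macrophage markers were examined in the same arrays. Of 17 macrophage and Kupffer cell markers 16 had a probe, 8 were detected on 0 of 12 arrays, Adgre1, Lyz2, Itgam, C1qa, C1qb and C1qc among them, and 3 were tested (Csf1r, Cd14 and Mrc1). The summed level of these 3 was 967 to 1080 with IL-13, 980 to 1066 with IL-4 and 867 to 917 in controls, so it was higher in both cytokine groups without overlap. Most of that sum was Cd14, whose difference was 0.21 with IL-13 (adjusted p = 0.0961) and 0.22 with IL-4 (adjusted p = 0.115). Mrc1, the mannose receptor, fell by 0.37 with IL-13 (adjusted p = 0.0281), but its probe was dim and the IL-13 and control arrays overlapped. The Mrc1 means were 4.38 with IL-13 and 4.75 in controls. A Ppargc1a probe detected on 0 arrays spanned 4.20 to 4.48, so this fall lies at the edge of detection. Of 12 lymphocyte markers 9 had a probe and 0 could be tested. Endothelial markers (3 tested) summed to 29.1 to 34.9 with IL-13, 35.0 to 50.0 with IL-4 and 30.9 to 44.9 in controls, and stellate cell and fibroblast markers (4 tested) to 62.6 to 135, 99.4 to 222 and 233 to 453 in the same order. Hepatocyte markers (5 tested) summed to 1829 to 2122 with IL-13, 1792 to 2156 with IL-4 and 1535 to 1726 in controls. The stellate sum was mostly Acta2, smooth muscle actin, which fell by 2.07 with IL-13 (adjusted p = 6.54e-05) and differed by -0.85 with IL-4 (adjusted p = 0.109). Des, Pdgfra and Ngfr passed with neither cytokine, and 8 of the 13 markers were detected on 0 arrays. Mean log2 signals were only 4.66 for Des, 4.53 for Pdgfra and 4.47 for Ngfr, and 4.53 for the endothelial Kdr and 4.66 for Clec4g. These lie near that Ppargc1a probe, so a change in them could hardly be measured. The hepatocyte sum was mostly Apob and Hnf4a, which passed with neither, and only Apoa1 of the 5 rose (1.23 with IL-13 and 0.76 with IL-4). The Apoa1 control mean, 4.55, was little above the same undetected Ppargc1a probe, so the size of its rise is uncertain. The macrophage, stellate, hepatocyte and progenitor sums stood apart between cytokine and control arrays, each through 1 or 2 bright genes, and their part in the Ppargc1b difference was not tested. Erythroid markers (4 tested) summed to 24.4 to 42.2 with IL-13, 34.2 to 1480 with IL-4 and 23.4 to 147 in controls, and without the arrays of high hemoglobin signal the Ppargc1b difference was 1.37 with IL-13 and 1.18 with IL-4.

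The 5 genes whose array values most resembled those of Ppargc1b were found by the root mean square difference over the 12 arrays, after each gene's own control mean was subtracted. They were Aldh3a1 (an aldehyde dehydrogenase) at 0.189 log2 units, Il24 (a cytokine of the IL-10 family) at 0.206, Cfi (complement factor I) at 0.215, P2ry6 (a receptor for UDP) at 0.218 and Hemk1 (a methyltransferase) at 0.238. The median over all other genes tested was 1.11. That value follows from the rise of Ppargc1b itself, since a gene that did not change lies about that far from it. Aldh3a1, the nearest, differed from control by 1.17 with IL-13 and 1.11 with IL-4. These genes were selected for this likeness, so their values are a description.

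Of the other coactivators of the family, Pprc1 passed with neither cytokine and Ppargc1a could not be measured. Ppargc1a, the fasting and cold inducible member, had 2 probes, with intensities of 92.6 to 109 and 90.7 to 107 over the 12 arrays and detection on none. Its level is therefore not measured here in any group, and no fold can be given. Pprc1 encodes PRC, the third member, which is known as a coactivator induced by growth signals. On the log2 scale the arrays read 8.90, 8.87, 9.13 and 8.99 with IL-13, 8.76, 8.62, 8.92 and 9.01 with IL-4, and 9.05, 8.99, 9.08 and 8.66 in controls. All 3 groups overlapped. The difference from control was 0.03 with IL-13 (95% interval -0.19 to 0.25, adjusted p = 0.934 in limma) and -0.12 with IL-4 (-0.34 to 0.10, adjusted p = 0.699). Within chip 1 it was -0.13 with IL-13 and -0.33 with IL-4, and within chip 2 it was 0.19 and 0.10, so its sign differed between chips. Both intervals end below the 1.19 at which the Ppargc1b interval with IL-13 begins.

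**Figure D3:**
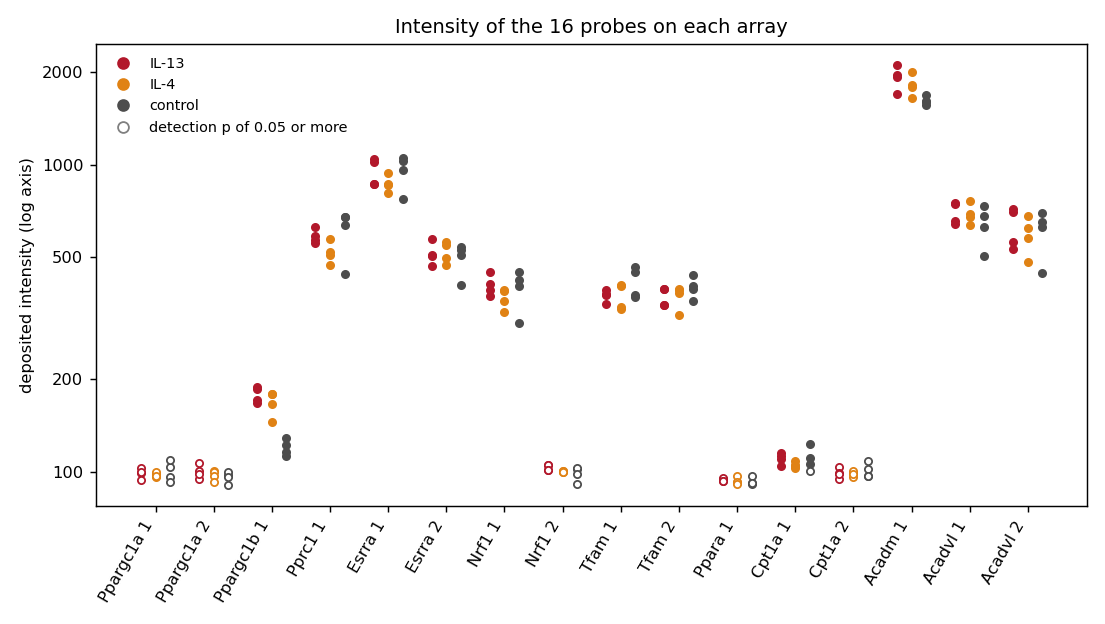
Deposited intensity (log axis, not normalised) of the 16 probes on each array, with IL-13, IL-4 and control side by side for each probe; open circles mark a detection p of 0.05 or more. The 5 probes with only open circles are both Ppargc1a probes, the Ppara probe and the second probes of Nrf1 and Cpt1a, and the Ppargc1b intensities lie between 112 and 188.

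Of the transcription factors, Esrra, Nrf1 and Tfam passed in neither comparison, and Ppara could not be measured. Esrra encodes the estrogen-related receptor alpha, a principal partner of PGC-1beta. Its log2 signal was 9.83, 9.84, 9.69 and 9.73 with IL-13, 9.71, 9.53, 9.80 and 9.68 with IL-4, and 9.72, 9.71, 9.74 and 9.59 in controls. The groups overlapped, and the difference was 0.08 with IL-13 (-0.08 to 0.24, adjusted p = 0.653) and -0.01 with IL-4 (-0.17 to 0.15, adjusted p = 0.963). A second Esrra probe gave 0.14 with IL-13 (adjusted p = 0.464) and 0.21 with IL-4 (unadjusted p = 0.0206, adjusted p = 0.273 over all probes), so the 2 probes differ in sign with IL-4 and neither passed.

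Nrf1 encodes nuclear respiratory factor 1, which drives genes of the respiratory chain. The signal (log2) was 8.42, 8.30, 8.30 and 8.27 with IL-13, 8.23, 8.12, 8.17 and 8.34 with IL-4, and 8.17, 8.30, 8.38 and 7.98 in controls. The control arrays spanned all the cytokine arrays but IL-13 1, and the difference was 0.12 with IL-13 (-0.07 to 0.30, adjusted p = 0.547) and 0.01 with IL-4 (-0.18 to 0.19, adjusted p = 0.982). Tfam packs the mitochondrial genome and takes part in its transcription. Its log2 signals were 8.12, 8.22, 8.24 and 8.17 with IL-13, 8.31, 8.33, 8.24 and 8.07 with IL-4, and 8.35, 8.36, 8.18 and 8.34 in controls. The groups overlapped through array control 3, the lowest control. The difference was -0.12 with IL-13 (-0.28 to 0.04, adjusted p = 0.445) and -0.07 with IL-4 (-0.23 to 0.09, adjusted p = 0.761), and the second Tfam probe gave -0.07 and -0.01. Ppara, the fatty acid receptor that governs oxidation genes in hepatocytes, had 1 probe with intensities of 91.0 to 96.5, detected on none of the arrays.

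Of the 3 oxidation enzymes, Acadm rose with IL-13, Acadvl rose with IL-4 at the threshold, and Cpt1a passed with neither. Acadm encodes medium-chain acyl-CoA dehydrogenase, which carries out the first step of beta-oxidation for medium-chain fatty acids. Its log2 signal was 10.91, 10.87, 10.95 and 10.76 with IL-13, 10.73, 10.89, 10.77 and 10.80 with IL-4, and 10.43, 10.39, 10.60 and 10.65 in controls. The lowest cytokine array, IL-4 1, lay just above the highest control array, control 4. Acadm rose by 0.36 ± 0.08 (SE) with IL-13, which is 1.28-fold (adjusted p = 0.00964 in limma), and differed by 0.28 ± 0.08 with IL-4, which is 1.22-fold and did not pass (adjusted p = 0.0555). The difference was 0.48 with IL-13 and 0.40 with IL-4 within chip 1, and 0.23 and 0.16 within chip 2, where the IL-13 call was lost (adjusted p = 0.469). The 2 control arrays of chip 2 were the higher control arrays.

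Acadvl encodes very-long-chain acyl-CoA dehydrogenase, which does the same step for long chains at the inner mitochondrial membrane. The log2 signal was 9.28, 9.34, 9.22 and 9.22 with IL-13, 9.39, 9.23, 9.31 and 9.33 with IL-4, and 9.19, 8.999, 9.05 and 8.90 in controls. The arrays did not overlap, although array control 1 came close to the lowest cytokine arrays, IL-13 3 and IL-13 4. Acadvl rose by 0.28 ± 0.08 with IL-4, 1.22-fold, at an adjusted p of 0.0498, and differed by 0.23 ± 0.08 with IL-13 (adjusted p = 0.0889). The IL-4 call sat at the threshold and was lost in 19 of 27 alternatives. A second Acadvl probe gave 0.14 with IL-13 and 0.10 with IL-4 (adjusted p = 0.591 and 0.8 over all probes), and the mean of both probes did not pass with IL-4 (adjusted p = 0.311). Within chip 1 the Acadvl difference was 0.22 with each cytokine, and within chip 2 it was 0.25 with IL-13 and 0.35 with IL-4.

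Cpt1a encodes the liver form of carnitine palmitoyltransferase 1, the enzyme that commits long-chain fatty acids to mitochondrial oxidation. Its better probe was dim and was detected on 4 of 4 arrays with IL-13, 3 of 4 with IL-4 and 3 of 4 in controls. The log2 signal was 4.74, 4.92, 4.59 and 4.89 with IL-13, 4.64, 4.47, 4.56 and 4.62 with IL-4, and 4.65, 5.10, 4.73 and 4.50 in controls. The groups overlapped, and the difference was 0.04 with IL-13 (-0.19 to 0.27, adjusted p = 0.898) and -0.17 with IL-4 (-0.40 to 0.06, adjusted p = 0.53). Ppargc1b, Acadm and Acadvl, 3 of the 8 tested genes, thus had all 4 cytokine arrays above all control arrays with IL-13 and with IL-4, as did 6.03% of all genes tested with IL-13 and 4.32% with IL-4. With all arrays below all controls there were 0 of the 8 genes, against 4.92% of all genes with IL-13 and 4.11% with IL-4.

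**Figure D4:**
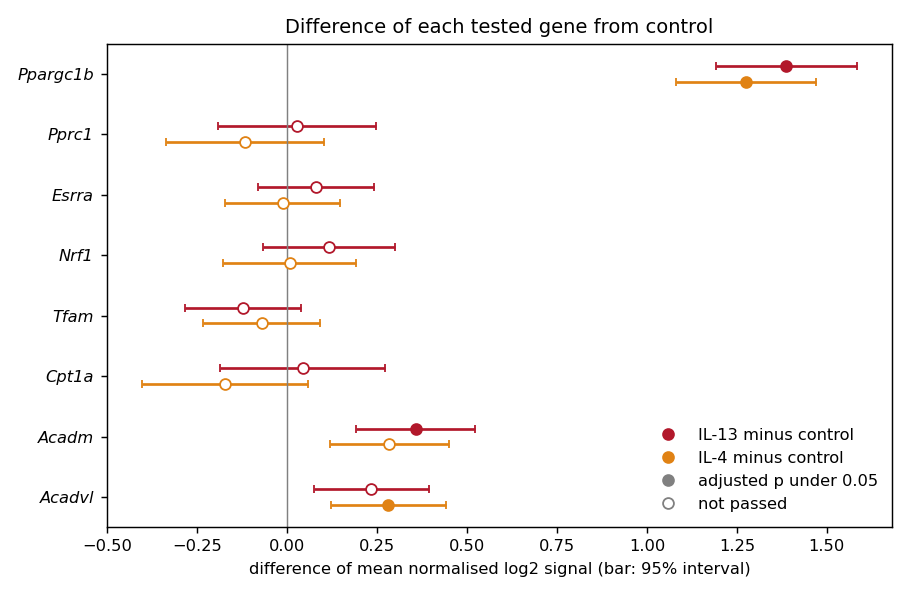
Difference of each tested gene from control (log2 scale, horizontal axis) with IL-13 above IL-4 in each row; bars are 95% intervals and filled circles passed at an adjusted p under 0.05. The Ppargc1b intervals, 1.19 to 1.58 with IL-13 and 1.08 to 1.47 with IL-4, lie to the right of all others, and those of Pprc1, Esrra, Nrf1, Tfam and Cpt1a include 0.

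Between the cytokines, 0 of the 8 tested genes passed, and 0 of 10453 genes (0%) passed in limma. At an unadjusted p under 0.05 there were 852 genes (8.15%), with 0 of the 8 among them, and limma with a trended and robust variance called 2 genes. The 8 differences, IL-13 minus IL-4, lay between -0.05 for Tfam and 0.22 for Cpt1a, with a median of 0.10 against 0.0069 over all genes. The Cpt1a interval was the widest on the upper side, -0.02 to 0.45.

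RefSeq promoters (mouse build GRCm38.p6, 250 bases before to 50 after a start site) were available for 9 of the 10 genes, all but Ppargc1b. They were searched on both strands for letters that partner factors and STATs are known to bind: TCAAGGTCA and its shorter core AAGGTCA (estrogen-related receptors; the core lies inside the longer form), GCGCATGC (nuclear respiratory factor 1), and TTC and GAA with 4 bases between (STAT6) or 3 bases between (other STATs). Shown here are the 250 bases before the start of Acadm, Acadvl, Esrra and Pprc1. The enzyme genes Acadm and Acadvl each passed the test with 1 cytokine and were higher than control with both. Esrra is the partner receptor and Pprc1 the detected paralog of Ppargc1b. Each printed stretch runs 5′ to 3′ on the strand of its gene, and capitals mark the matches found. Acadm is at chr3:153944644-153944893 on the minus strand, Acadvl at chr11:70015429-70015678 on the minus strand, Esrra at chr19:6921809-6922058 on the minus strand and Pprc1 at chr19:46056289-46056538 on the plus strand.
Acadm: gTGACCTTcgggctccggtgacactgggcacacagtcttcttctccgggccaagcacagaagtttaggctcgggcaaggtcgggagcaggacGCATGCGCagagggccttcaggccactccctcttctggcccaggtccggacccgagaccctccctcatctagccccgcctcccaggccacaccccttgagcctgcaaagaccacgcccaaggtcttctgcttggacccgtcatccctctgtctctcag
Acadvl: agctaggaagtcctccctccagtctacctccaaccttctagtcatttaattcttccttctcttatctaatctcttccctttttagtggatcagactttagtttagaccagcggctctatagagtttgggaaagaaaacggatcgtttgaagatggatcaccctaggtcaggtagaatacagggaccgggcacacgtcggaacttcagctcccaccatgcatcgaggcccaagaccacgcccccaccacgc
Esrra: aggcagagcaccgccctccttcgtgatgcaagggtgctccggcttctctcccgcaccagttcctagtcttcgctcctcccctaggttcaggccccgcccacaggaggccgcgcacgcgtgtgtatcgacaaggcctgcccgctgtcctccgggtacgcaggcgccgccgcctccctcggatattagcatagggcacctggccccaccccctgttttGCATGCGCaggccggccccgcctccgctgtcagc
Pprc1: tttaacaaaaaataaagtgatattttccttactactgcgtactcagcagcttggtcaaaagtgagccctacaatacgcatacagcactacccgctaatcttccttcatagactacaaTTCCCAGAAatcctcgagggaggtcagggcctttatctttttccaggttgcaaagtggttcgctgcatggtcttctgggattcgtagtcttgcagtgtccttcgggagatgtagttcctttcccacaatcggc
In Acadm the core AAGGTCA occurs on the opposite strand (printed as TGACCTT) at position -249 from the start, and the nuclear respiratory factor letters, also reversed, at -158. Esrra holds the latter at -34, and Ppara, not printed, holds them at -31 and again, reversed and overlapping, at -29. Pprc1 holds TTCCCAGAA, the spacing of 3, at -133. The promoters of Acadvl, Nrf1, Tfam, Cpt1a and Ppargc1a held none of the letters searched. Among 32851 mouse promoters of the same length, 0.423% held TCAAGGTCA, 4.72% AAGGTCA, 2.71% GCGCATGC, 6.95% the spacing of 4 and 8.3% the spacing of 3. A match describes the letters and is not a site.

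To see whether other genes of oxidative metabolism moved with Ppargc1b, 11 lists with 215 genes beside the 10 were counted. Of these 197 had a probe and 163 were tested. With IL-13 3 rose and 3 fell, and with IL-4 2 rose and 4 fell, which is 3.68% of the listed genes with each cytokine, against 5.73% of all genes with IL-13 and 3.47% with IL-4. Between the cytokines 0 passed. The median difference of the 163 genes was 0.03 with each cytokine, against -0.0050 over all genes with IL-13 and -0.011 with IL-4. Some of the listed genes were dim. Mean log2 signals were 4.49 for Sdha, 4.50 for Opa1 and Fabp5 and 4.52 for Crebbp, and an undetected Ppargc1a probe spanned 4.20 to 4.48. A change in such genes could hardly be measured, and the counts and medians of the lists include them.

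In 7 of the 11 lists 0 genes passed with either cytokine. The transcription factors that partner the coactivators (15 tested) had medians of -0.01 with IL-13 and 0.02 with IL-4, and the gene of smallest p was Hnf4a, a hepatocyte nuclear receptor, at 0.29 with IL-13 (adjusted p = 0.0698). Coregulators and modifying enzymes (18 tested) had medians of 0.06 and 0.0015 in the same order, and the smallest p was that of Tbl1xr1, a subunit of corepressor complexes, at -0.26 with IL-4 (adjusted p = 0.119). The genes of mitochondrial DNA upkeep and transcription (20 tested) lay between -0.16 and 0.14 with IL-13 and between -0.21 and 0.16 with IL-4, and Top1mt, the mitochondrial topoisomerase, came first at -0.16 with IL-13 (adjusted p = 0.35).

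Mitochondrial fatty acid oxidation and the carnitine shuttle, apart from the 3 enzymes above, had 25 tested genes, of which 16 lay above 0 with IL-13 and 18 with IL-4. Their medians were 0.03 with IL-13 and 0.07 with IL-4, and the smallest p was that of Crat, carnitine acetyltransferase, at 0.22 with IL-13 (adjusted p = 0.129). Respiratory chain genes known as PGC-1 targets (13 tested) had medians of 0.08 with IL-13 and 0.10 with IL-4, with 9 and 11 genes above 0, and Ndufa9, a complex I subunit, was at 0.24 with IL-4 (adjusted p = 0.169). Over all genes, 48.6% lay above 0 with IL-13 and 46.5% with IL-4. Genes of mitochondrial fusion, fission and mitophagy (10 tested) had medians of 0.0029 and -0.0070, with Yme1l1, an inner membrane protease, at 0.22 with IL-13 (adjusted p = 0.19). Mitochondrial antioxidant enzymes (8 tested, with the mainly peroxisomal catalase Cat counted among them) had medians of -0.02 and 0.09. Prdx3, a mitochondrial peroxidase, was at 0.29 with IL-4 (adjusted p = 0.0583).

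**Figure D5:**
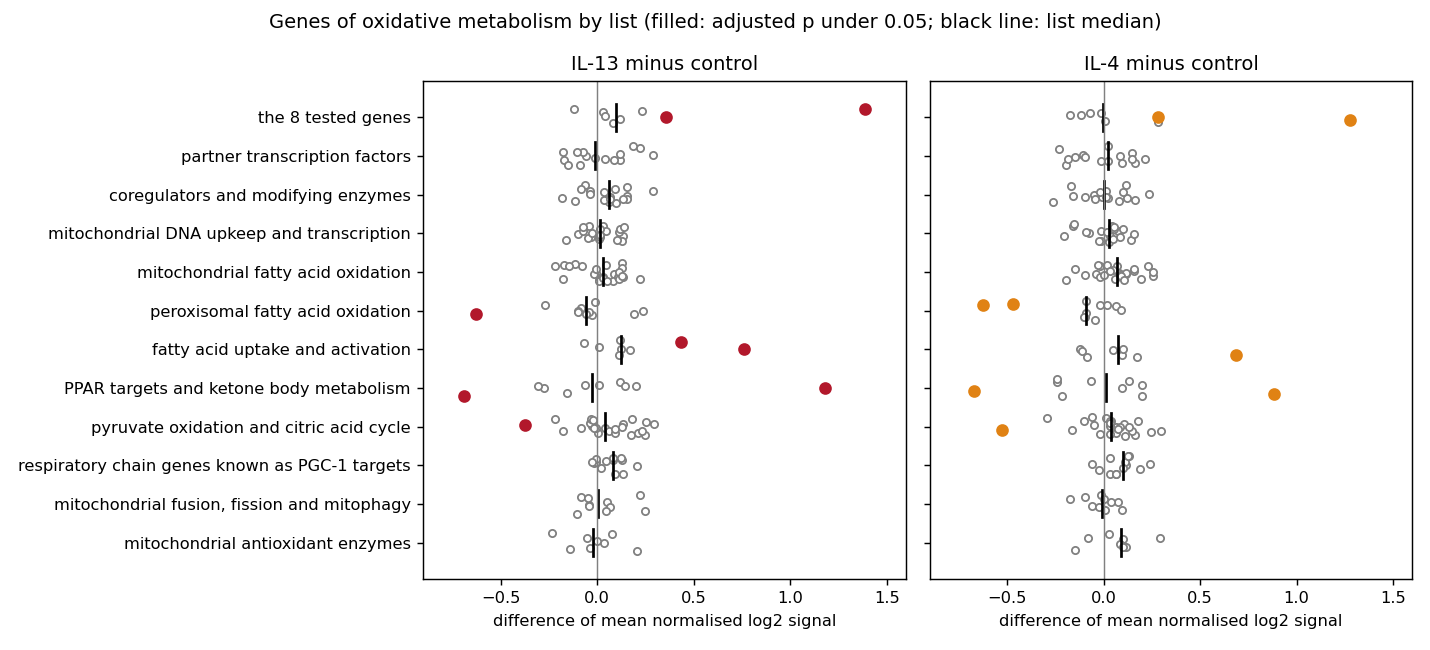
Difference from control (log2 scale, horizontal axis) of every tested gene in the 8-gene set and the 11 lists of oxidative metabolism, IL-13 in the left panel and IL-4 in the right; filled circles passed at an adjusted p under 0.05 and black lines are list medians. Outside the 8 genes, 6 filled circles appear in each panel. The list median furthest from 0 is 0.12, that of fatty acid uptake and activation with IL-13.

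The other 4 lists held the genes that changed. In peroxisomal fatty acid oxidation (11 tested, medians -0.06 with IL-13 and -0.09 with IL-4), Acaa1b, a peroxisomal thiolase, fell with both. Its log2 signal was 6.49, 6.49, 6.28 and 6.47 with IL-13, 6.54, 6.32, 6.52 and 6.36 with IL-4, and 7.04, 6.97, 7.06 and 7.18 in controls, so no cytokine array reached a control array. Acaa1b fell by 0.63 with each cytokine (adjusted p = 5.13e-05 with IL-13 and 7.84e-05 with IL-4). The near-identical Acaa1a can share its signal, so the gene is uncertain as a separate measurement. The probe of Acaa1a itself had a mean log2 signal of 11.26 and passed with neither cytokine (-0.01 with IL-13 and -0.05 with IL-4). Sharing of signal between the 2 genes was not tested. Without background correction the Acaa1b difference was -0.36 with IL-13 and -0.35 with IL-4, and both passed. Acox2, the branched-chain acyl-CoA oxidase, fell by 0.47 with IL-4 (adjusted p = 0.00456) and differed by -0.27 with IL-13 (adjusted p = 0.0967), and the difference between the cytokines, 0.20, did not pass. Its IL-4 call was lost on chip 1 alone (-0.49, adjusted p = 0.0721) and on chip 2 alone (-0.45, adjusted p = 0.238).

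Among genes of fatty acid uptake and activation (8 tested, medians 0.12 with IL-13 and 0.07 with IL-4), Acsl3, a long-chain acyl-CoA synthetase known from lipid droplet formation, rose with both. On the log2 scale arrays 1 to 4 read 8.41, 8.37, 8.73 and 8.62 with IL-13, 8.49, 8.47, 8.44 and 8.44 with IL-4, and 7.80, 7.87, 7.63 and 7.80 in controls. All cytokine arrays stood above all controls, and the rise was 0.76 with IL-13 (adjusted p = 1.40e-05) and 0.69 with IL-4 (adjusted p = 6.49e-05). A second, dimmer Acsl3 probe gave 0.35 with IL-13 (adjusted p = 0.0346 over all probes) and 0.32 with IL-4 (adjusted p = 0.0889). Slc27a4, a fatty acid transport protein, rose by 0.43 with IL-13 (adjusted p = 0.00333) and differed by 0.10 with IL-4 (adjusted p = 0.694). The IL-13 call was lost on each chip alone, where the difference was 0.36 and 0.50 (adjusted p = 0.115 and 0.12), and without background correction it passed at 0.18 (adjusted p = 0.0122). The difference between the cytokines was 0.34 and did not pass (adjusted p = 0.375).

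Among PPAR targets and ketone body genes (10 tested, medians -0.03 with IL-13 and 0.01 with IL-4), Cidec rose and Cyp4a12a fell. Cidec encodes a lipid droplet protein that promotes fat storage. Its log2 signal was 5.54, 5.37, 5.64 and 5.81 with IL-13, 5.16, 5.41, 4.96 and 5.65 with IL-4, and 4.58, 4.42, 4.25 and 4.39 in controls, where it was detected on 1 of 4 arrays. The arrays did not overlap. It was detected on 4 of 4 arrays with each cytokine, so it met the detection filter through the cytokine arrays. Since most control arrays did not detect it, a floored fold was taken. Each control array counted as the higher of the probe's own signal and the lowest signal among detected probes. This gave 2.04-fold with IL-13 and 1.66-fold with IL-4, and these folds were not tested. The limma differences without the floor were 1.18 with IL-13 (adjusted p = 7.68e-06) and 0.89 with IL-4 (adjusted p = 0.000282). They rest on control signals at the edge of detection. Without background correction the log2 difference was 0.36 and 0.26, with an offset of 50 it was 0.57 and 0.41, and it passed. Cyp4a12a, a fatty acid omega-hydroxylase, fell by 0.69 with IL-13 (adjusted p = 0.00015) and by 0.67 with IL-4 (adjusted p = 0.000298), and the near-identical Cyp4a12b can share its signal. Without background correction Cyp4a12a fell by 0.25 and 0.24.

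In pyruvate oxidation and the citric acid cycle (25 tested, medians 0.04 with each cytokine), Pdk1 fell with both. It encodes a pyruvate dehydrogenase kinase, which inhibits the entry of pyruvate into the cycle. Normalised log2 signals were 6.23, 5.95, 6.18 and 6.20 with IL-13, 6.05, 6.08, 6.09 and 5.74 with IL-4, and 6.58, 6.32, 6.53 and 6.63 in controls. All cytokine arrays lay below all controls. Pdk1 fell by 0.38 with IL-13 (adjusted p = 0.0267), a call lost in 7 of 27 alternatives, among them leaving out IL-13 2 (-0.31, adjusted p = 0.0993), and by 0.53 with IL-4 (adjusted p = 0.00279). The IL-4 call was lost on chip 1 alone (-0.39, adjusted p = 0.156) and without the arrays of high hemoglobin signal (-0.41, adjusted p = 0.0825). Without background correction Pdk1 passed at -0.19 with IL-13 and -0.25 with IL-4.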

How the data were processed

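RNA of 12 samples was measured on Illumina mouse beadchips, 1 array a sample, after amplification and Cy3 labelling, per the labels' protocols. The deposited table has 45281 probes and, per the file headers, 2 columns for every array, an intensity and a detection p-value. GenomeStudio 2011.1 is named in the submitters' processing notes, and no source used here states its settings. The values show that the deposited intensity is neither normalised nor background-corrected. The deposited processed log2 values equal the log2 intensity plus a constant per array (2.22 to 2.34), with a median of 8.97 on every array. They served as an alternative.

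The neqc function of limma 3.58.1 (R 4.3.3) estimated the background through the detection p-values and removed it, added 16 to each value, quantile-normalised the arrays and took log2. The added 16 shrinks differences of dim probes. A probe was kept if 4 or more of the 12 arrays gave it a detection p under 0.05 (19915 probes). The platform annotation gives 1 symbol for 34885 probes, several for 18 and none for 10378, and gene identifiers tied 99.8% of the first to a current symbol. Each gene was represented by its kept probe of highest mean, giving 10453 genes, of which 4185 had additional kept probes.

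One model over all 12 arrays (lmFit and eBayes, two-sided, Benjamini-Hochberg over all genes) gave the 3 comparisons, with calls at an adjusted p under 0.05. Summed marker levels add the linear normalised signals of the tested markers. All 10 genes are named. From each other list the text names up to 3 rises and 3 falls of smallest p past the threshold per cytokine against control, or, where none passed, the gene of smallest p, and the 5 genes most like Ppargc1b. The genes and lists were chosen with earlier results of these data known. Alternatives changed the background step, the value added, the scaling, the detection filter, the choice of probe, or the variance model with or without array weights. Others used the submitters' values, a block for chip or for replicate number, 1 chip at a time, and left out single arrays or the 3 arrays with most hemoglobin signal (IL-4 2, IL-4 4 and control 4). The fit was tested on simulated data.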

Additional observations from a re-analysis of the deposited data

Results flagged for a closer look

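Tfam on array control 3 had a log2 signal of 8.18, apart from 8.34 to 8.36 on the other 3 control arrays. The gap to its nearest neighbour was 0.91 of the range of the 4 control arrays, above the 95% critical value of Dixon's test. It was 1 of 24 groups of 4 arrays examined (8 genes in 3 groups), and chance alone marks about 1 in 20. The second Tfam probe read 8.30 on the same array, the highest of its 4 control arrays (8.12 to 8.30).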

How the results depend on the processing

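Under 27 alternatives 0 of the differences that had passed changed sign. Ppargc1b passed under all 27 with both cytokines, Acadm with IL-13 under all but chip 2 alone, and Acaa1b, Acsl3, Cidec and Cyp4a12a under all 27 with both, while Cpt1a had no value at a detection p under 0.01. With IL-13, 243 genes passed on chip 1 alone and 186 on chip 2 alone, in place of 599, and 1 of the 8 genes in place of 2 on chip 2 alone; each chip alone holds fewer samples. With IL-4, 101 genes passed on chip 2 alone and 190 without the arrays of high hemoglobin signal, in place of 363, and these hold fewer samples. With IL-4, 1 of the 8 genes (Ppargc1b) passed in place of 2 under 75th percentile scaling, the submitters' processed values, all kept probes fitted, chip 1 alone, chip 2 alone, and without the arrays of high hemoglobin signal; the cause was not tested. Acadm with IL-4, which did not pass, did so in 7 alternatives, with an adjusted p of 0.0132 at the lowest, and Acadvl with IL-13 in 3. Between the cytokines 2 genes passed with a trended and robust variance and 1 on chip 1 alone, in place of 0. Leaving out 1 array at a time gave 409 to 593 genes with IL-13, 251 to 442 with IL-4 and 0 to 1 between the cytokines, and of the 8 genes 2 to 3 with IL-13 and 1 to 2 with IL-4. Acadvl kept its IL-4 call in 1 of these 12 fits, the one without control 1. The submitters' values turned the split of higher and lower calls to 203 and 406 with IL-13, in place of 366 and 233, and to 120 and 294 with IL-4, in place of 225 and 138. Same-numbered arrays of different groups did not deviate together (correlations of -0.146 to 0.208, 5 of 12 pairs over 0.1, 2 of 12 arrays best with their own number), so the numbers are not taken as pairs. With the replicate block 600 genes passed with IL-13, 358 with IL-4 and 0 between the cytokines, and of the 8 genes 2 with IL-13 and 1 with IL-4 (Acadvl adjusted p = 0.0546). Signal over background limits Ppargc1a and Ppara, which have no value, and the size of the differences of dim genes. Among these are Ppargc1b, Cpt1a, Cidec, Cyp4a12a and Slc27a4. It also limits dim markers, among them Mrc1, Apoa1, Prom1, Des, Pdgfra, Ngfr, Kdr and Clec4g, and dim genes of the lists, such as Sdha, Opa1, Fabp5 and Crebbp.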
